A study of Mus musculus with 10 samples.

Results

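Gfap, Vim, Nes and Synm encode the intermediate filament proteins of the astrocyte: glial fibrillary acidic protein, vimentin, nestin and synemin. They were taken by symbol from the hippocampal count table, where all 4 were present among 20156 gene rows and all 4 passed the filter on low counts that left 16180 genes for testing. The libraries came from 5 mice of the genotype labelled TfamAKO and 5 wild type (WT) mice, all 6 months old, with 1 library of hippocampal RNA per mouse. Tfam encodes the protein that packages mitochondrial DNA and starts its transcription. The series title places the loss in the mitochondria of astrocytes, but the labels do not name the deleted part of Tfam, the cells that lost it, or a Cre line or promoter, and they record neither sex, nor litter, nor batch.

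Intermediate filaments are rope-like polymers of coiled-coil proteins that give a cell mechanical strength and hold organelles in place. GFAP and vimentin can each polymerise alone, whereas nestin and synemin are large subunits that enter a filament only together with a partner such as vimentin. Resting astrocytes of the hippocampus are known for GFAP. Vimentin, nestin and synemin are known from radial glia and neural stem cells, and reactive astrocytes can carry them again. Vimentin and nestin are also made by endothelial cells and vimentin by microglia, so RNA of whole tissue does not come from astrocytes alone.

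The upstream promoters of the 4 genes are printed to show the sequence in front of the start site of each member. Each is the stretch of 250 bases before the RefSeq start in GRCm38.p6, read on the strand of the gene, with matches to the searched motifs in capitals. The stretches lie at chr11:102897201-102897450 (minus strand) for Gfap, chr2:13574061-13574310 (plus strand) for Vim, chr3:87970843-87971092 (plus strand) for Nes and chr7:67759743-67759992 (minus strand) for Synm.
Gfap: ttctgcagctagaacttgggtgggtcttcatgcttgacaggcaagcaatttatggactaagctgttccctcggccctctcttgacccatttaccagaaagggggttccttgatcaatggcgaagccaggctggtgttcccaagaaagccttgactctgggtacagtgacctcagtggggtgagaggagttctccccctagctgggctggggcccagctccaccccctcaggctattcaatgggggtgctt
Vim: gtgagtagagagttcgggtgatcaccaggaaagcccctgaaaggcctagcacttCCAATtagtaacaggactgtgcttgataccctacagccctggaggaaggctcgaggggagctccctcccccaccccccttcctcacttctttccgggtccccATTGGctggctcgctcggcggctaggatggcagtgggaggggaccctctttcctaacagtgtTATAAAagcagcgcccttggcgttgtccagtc
Nes: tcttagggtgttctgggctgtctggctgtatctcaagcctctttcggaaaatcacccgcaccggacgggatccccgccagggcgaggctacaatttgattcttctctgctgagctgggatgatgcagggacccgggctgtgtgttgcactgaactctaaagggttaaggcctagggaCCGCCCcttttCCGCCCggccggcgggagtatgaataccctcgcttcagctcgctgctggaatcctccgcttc
Synm: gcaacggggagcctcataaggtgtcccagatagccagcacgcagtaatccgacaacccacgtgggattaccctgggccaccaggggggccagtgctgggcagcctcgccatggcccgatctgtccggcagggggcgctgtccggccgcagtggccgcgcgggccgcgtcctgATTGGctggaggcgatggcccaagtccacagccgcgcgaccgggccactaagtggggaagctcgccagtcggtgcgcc

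The motifs searched on both strands were TATAAA of the TATA box, the CCAAT box, GGGCGG of the GC box, TTCNNNGAA of STAT sites and TGANTCA of AP-1 sites, and no match overlapped another. The Vim stretch held TATAAA at -32 to -27, counted from the start site, and CCAAT at -196 to -192 and, on the opposite strand, at -94 to -90. The Nes stretch held GGGCGG on the opposite strand at -73 to -68 and at -62 to -57, and the Synm stretch held CCAAT on the opposite strand at -78 to -74. The Gfap stretch held none of the 5 motifs, which says only that these letters are not in this window. Of 32851 RefSeq windows of the same length, 12.4% held TATAAA, 33.8% CCAAT, 32.7% GGGCGG, 7.02% TTCNNNGAA and 6.75% TGANTCA. GC content was 55.6% for Gfap with 2 CpG dinucleotides, 58.4% for Vim with 8, 58.8% for Nes with 15 and 70.0% for Synm with 23, beside medians of 52.4% and 6 CpG over all windows. Among these promoters, that of Synm thus held the most CpG dinucleotides and that of Gfap the fewest. A link between CpG count and change in expression was not tested. No binding or methylation was measured.

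Library totals were 19558377 to 28675367 counts in TfamAKO and 16584245 to 26032470 in WT. Tfam was at 23.6, 22.7, 19.6, 23.1 and 23.4 CPM, the count scaled to the effective library size, in TfamAKO 1 to 5, against 31.7, 33.0, 20.6, 32.5 and 30.4 CPM in WT 1 to 5. WT 3 lay inside the TfamAKO range, and the difference was -0.40 ± 0.12 on the log2 scale (SE, edgeR adjusted p = 0.0204). It did not pass without WT 2, WT 4 or TfamAKO 3 (edgeR adjusted p 0.0504 to 0.0580), without TfamAKO 4 and 5 together (edgeR adjusted p = 0.0524), or in the deposited normalized values (-0.28, limma adjusted p = 0.117). Across all genes tested, 3369 rose in TfamAKO (20.8%) and 2679 fell (16.6%) at an edgeR adjusted p under 0.05. Kdm5d, a gene of the Y chromosome, reached 22.7 CPM in TfamAKO 4 and 22.4 CPM in TfamAKO 5, while the other 8 libraries stayed under 1 CPM. The choroid plexus transcript Ttr was at 15.5 to 107 CPM in TfamAKO, and at 14.3, 122, 5146, 3801 and 2511 CPM in WT 1 to 5. Both facts set libraries apart within a group, and member values without those libraries are given with the results.

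Gfap, the main filament protein of mature astrocytes and the standard marker of their reactive state, was the most abundant member. Its level was 2749, 2382, 1834, 2048 and 1452 CPM in TfamAKO 1 to 5, against 344, 530.5, 459.5, 479.8 and 422.8 CPM in WT 1 to 5. The lowest TfamAKO library lay far above the highest WT library, and TfamAKO 1 and TfamAKO 5 marked the ends of the TfamAKO range. Gfap rose 4.68-fold in TfamAKO, with means of 2093 ± 498 CPM in TfamAKO and 447 ± 69.6 CPM in WT (SD, n = 5 each). The log2 fold change was 2.23 ± 0.17 (SE, edgeR adjusted p = 2.65e-06).

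Vim, which encodes the filament protein of immature glia, of reactive astrocytes and of vessel wall cells, rose the most of the 4. It was at 514.7, 1012, 887.7, 951.3 and 680.8 CPM in TfamAKO 1 to 5, against 36.5, 53.4, 45.9, 55.3 and 59.6 CPM in WT 1 to 5. The groups stood wide apart, and TfamAKO 1, the library with the most Gfap, had the least Vim of its group. Means were 809 ± 207 CPM in TfamAKO and 50.1 ± 9.11 CPM in WT (SD, n = 5 each), a 16.1-fold rise. On the log2 scale the difference was 4.01 ± 0.20 (SE, edgeR adjusted p = 1.00e-07).

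Nes encodes nestin, the large subunit by which neural stem cells and radial glia are recognised. Its level was 36.3, 108, 105, 95.6 and 113 CPM in TfamAKO 1 to 5, against 8.05, 10.3, 9.05, 10.6 and 11.7 CPM in WT 1 to 5. The 4 other TfamAKO libraries lay close together, and TfamAKO 1 stood between them and the WT range without touching either. Nes rose 9.18-fold, with means of 91.7 ± 31.6 CPM in TfamAKO and 9.94 ± 1.42 CPM in WT (SD, n = 5 each). The log2 fold change was 3.20 ± 0.27 (SE, edgeR adjusted p = 5.95e-06). Without TfamAKO 1 it was 3.40 ± 0.10.

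Synm, whose product synemin links filaments to membrane complexes and anchors protein kinase A, rose the least. It was at 63.7, 98.8, 94.3, 102 and 111 CPM in TfamAKO 1 to 5, against 60.2, 68.9, 61.4, 67.6 and 70.0 CPM in WT 1 to 5. TfamAKO 1 lay within the WT range and the other 4 TfamAKO libraries lay above it, so the groups overlapped through a single library. Means were 94.0 ± 18.0 CPM in TfamAKO and 65.6 ± 4.50 CPM in WT (SD, n = 5 each), a 1.43-fold rise. The log2 fold change was 0.52 ± 0.12 (SE, edgeR adjusted p = 0.00623), and without TfamAKO 1 it was 0.63 ± 0.07. Without WT 3, 4 and 5 the estimate was 0.57, and its edgeR adjusted p of 0.0806 did not pass the threshold. Ttc23 lies on the opposite strand across Synm in the GENCODE M21 annotation, and it averaged 7.33 ± 1.15 CPM in TfamAKO and 3.26 ± 1.05 CPM in WT (SD, n = 5 each). The library kit keeps strand, per the labels, but no source used here says whether counting used it.

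**Figure D1:**
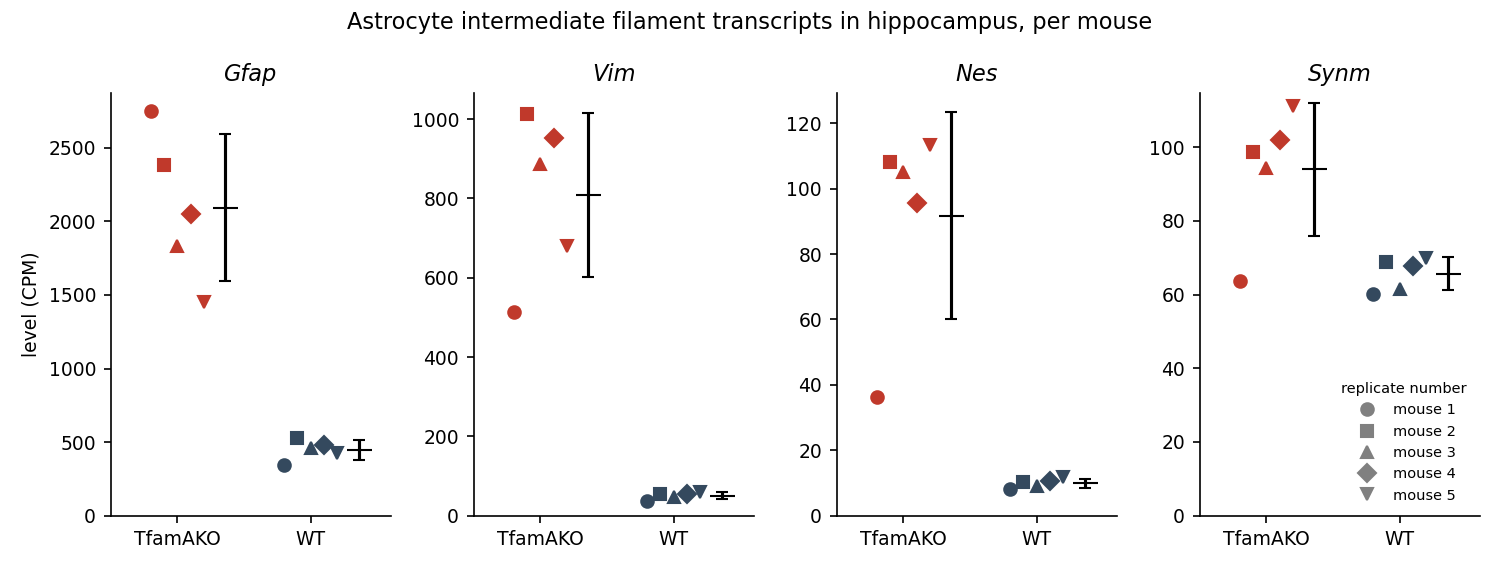
Level in CPM of each filament gene in each mouse, with TfamAKO left of WT; each symbol is 1 mouse, the black bars are mean and SD (n = 5), and every axis starts at 0. The TfamAKO points lie above all WT points for Gfap, Vim and Nes, whereas for Synm the point of TfamAKO 1 (63.7 CPM) lies among the WT points.

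All 4 members passed the test in the upward direction, beside 20.8% of all genes tested. In 3 of them every TfamAKO library exceeded every WT library, beside 14.5% of all genes. The same 3 rose by at least 2 on the log2 scale, beside 1.38% of all genes, for which the median log2 fold change was -0.02. By size of log2 fold change, 35 of the 16180 genes rose more than Vim, 60 more than Nes, 159 more than Gfap and 2422 more than Synm. In bulk tissue, more cells of a type cannot be told apart from more RNA per cell.

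The 4 members made up 0.313% ± 0.0438 of the library counts in TfamAKO and 0.0563% ± 0.00758 in WT (SD, n = 5 each). The lowest TfamAKO share, 0.247%, was above the highest WT share, 0.0638%. Levels of different members were compared per length, as CPM per kilobase of the longest protein-coding GENCODE M21 transcript: 2.648 kb for Gfap, 2.193 kb for Vim, 6.126 kb for Nes and 7.818 kb for Synm. The level of Gfap was 790 ± 188 CPM per kb in TfamAKO and 169 ± 26.3 CPM per kb in WT. Vim had a level of 369 ± 94.2 CPM per kb in TfamAKO and 22.9 ± 4.15 CPM per kb in WT. Levels of the large subunits were much lower. Nes was at 15.0 ± 5.16 CPM per kb in TfamAKO and 1.62 ± 0.23 CPM per kb in WT. Synm was at 12.02 ± 2.31 CPM per kb in TfamAKO and 8.40 ± 0.58 CPM per kb in WT (SD, n = 5 each, for all 4 genes).

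The order of levels per length was Gfap, Vim, Nes, Synm in TfamAKO, and the SDs of Nes and Synm overlapped. In WT the order was Gfap, Vim, Synm, Nes, and neighbours differed by more than their SDs. Genes were ranked by level per kb within each library, among 15983 genes with a length. The median rank over the libraries of a group was 72 in TfamAKO and 2850 in WT for Vim, and 30 in TfamAKO and 266 in WT for Gfap. For Nes it was 4118 in TfamAKO and 11332 in WT, and for Synm 5280 in TfamAKO and 6576 in WT. The length of Synm depends on the transcript chosen, since its protein-coding transcripts run from 2697 to 7818 bases.

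The make-up of the filament transcripts differed between the genotypes. Gfap gave 66.2% ± 8.20 of the summed CPM per kb of the 4 genes in TfamAKO and 83.6% ± 1.81 in WT. Vim gave 31.5% ± 7.45 in TfamAKO and 11.3% ± 1.45 in WT, and Synm 1.05% ± 0.35 in TfamAKO and 4.21% ± 0.51 in WT. Nes gave 1.32% ± 0.58 in TfamAKO and 0.81% ± 0.10 in WT (SD, n = 5 each). The make-up of TfamAKO 1 was nearer to WT, with 80.7% Gfap and 18.2% Vim, whereas the other 4 TfamAKO libraries had 61.5% to 64.7% Gfap and 33.2% to 35.9% Vim.

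**Figure D2:**
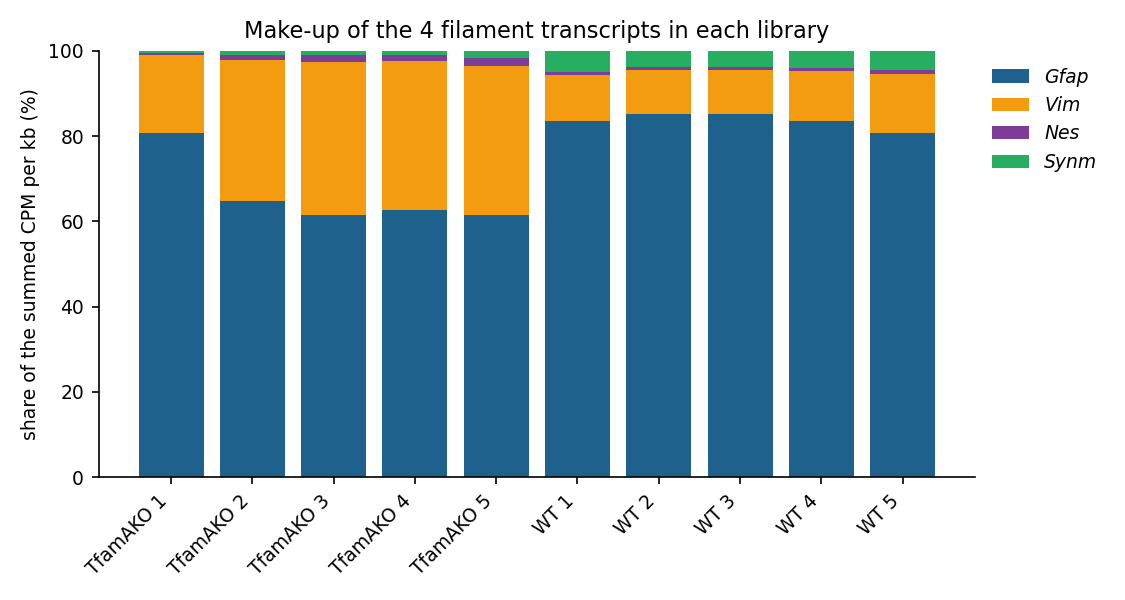
Share of each gene in the summed CPM per kb of the 4 filament genes, in percent, for the 5 TfamAKO and then the 5 WT libraries. Vim takes 33.2% to 35.9% in TfamAKO 2 to 5 and 18.2% in TfamAKO 1, and Gfap takes over 80% in every WT library.

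TfamAKO mice did not share 1 pattern of increase over the 4 genes. TfamAKO 1 had 6.15 times the WT mean of Gfap, the most of its group, and 1.43 times the mean of the other 4 TfamAKO libraries. The same library had 10.3 times the WT mean of Vim, 3.65 times that of Nes and 0.970 times that of Synm, in each case the least of its group. In the other 4 libraries Nes was at 9.62 to 11.4 times and Synm at 1.44 to 1.69 times the WT mean. TfamAKO 5 had the least Gfap of its group (3.25 times the WT mean), the most Nes and Synm, and the lowest Vim after TfamAKO 1 (13.6 times the WT mean). Summed endothelial markers were also lowest in TfamAKO 1 (633 CPM, beside 870 to 1090 CPM in TfamAKO 2 to 5), summed microglial markers were lowest (786 CPM, beside 857 to 1026 CPM), summed neuronal markers were highest (10990 CPM, beside 9113 to 9957 CPM), and summed astrocyte markers were highest (6008 CPM, beside 4550 to 5568 CPM). The part of these in the pattern of TfamAKO 1 was not tested. Among WT mice the spread was smaller, and WT 1 had the lowest level of all 4 genes. The coefficient of variation of Nes was 34.5% in TfamAKO and 14.3% in WT, and that of Synm 19.2% in TfamAKO and 6.86% in WT.

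**Figure D3:**
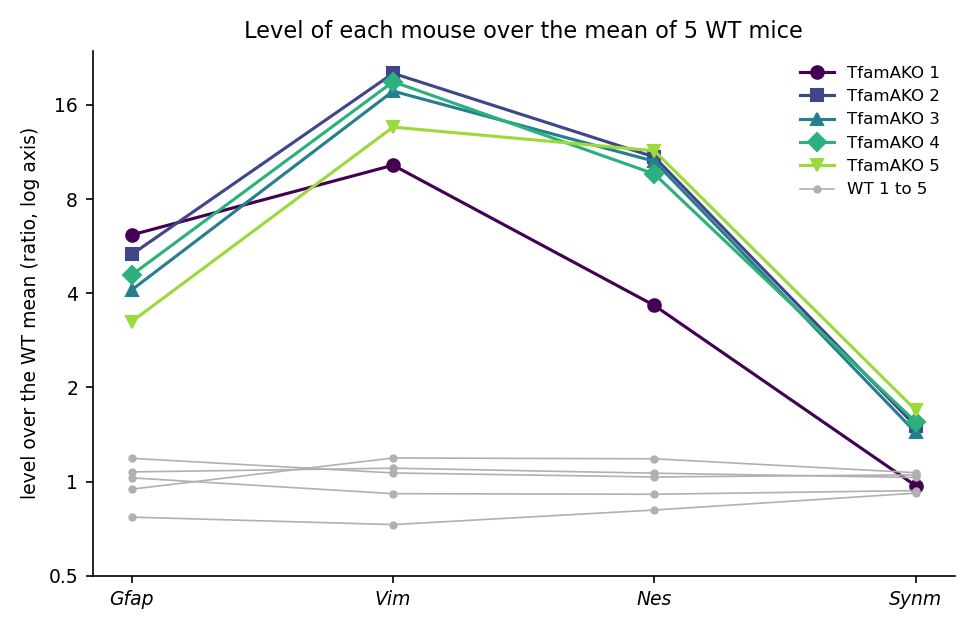
Level of each gene in each mouse divided by the mean of the 5 WT mice, on a log axis; coloured lines are the 5 TfamAKO mice and grey lines the 5 WT mice. The line of TfamAKO 1 starts highest at Gfap (6.15) and ends lowest of the TfamAKO lines at Vim (10.3), Nes (3.65) and Synm (0.970).

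Ratios of members within a library, which do not depend on library scaling, were compared by a two-sided exact permutation test over all 252 assignments of 5 and 5 libraries, whose smallest p is 0.00794. P-values were adjusted over the 6 pairs of genes. The count ratio of Vim over Gfap was 0.187, 0.425, 0.484, 0.465 and 0.469 in TfamAKO 1 to 5, against 0.106, 0.101, 0.0998, 0.115 and 0.141 in WT 1 to 5. All TfamAKO ratios were above all WT ratios, and TfamAKO 1 stood nearest to WT. The log2 ratio was higher in TfamAKO by 1.78 ± 0.28 (SE, exact permutation p = 0.00794, adjusted p = 0.00952). Vimentin transcript thus rose by more than that of its usual partner in the astrocyte.

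The count ratio of Nes over Gfap was 0.0132, 0.0455, 0.0572, 0.0467 and 0.0780 in TfamAKO 1 to 5, against 0.0235, 0.0194, 0.0197, 0.0221 and 0.0278 in WT 1 to 5. TfamAKO 1 lay below every WT library and the other 4 above. The difference of 0.90 ± 0.45 on the log2 scale did not pass (SE, exact permutation p = 0.0714, adjusted p = 0.0714), and without TfamAKO 1 it was 1.31 with an exact permutation p of 0.0159, the smallest that 4 against 5 libraries can give. Nes over Vim was lower in TfamAKO by -0.88 ± 0.20 on the log2 scale (SE, exact permutation p = 0.00794, adjusted p = 0.00952).

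Synm rose by less than each of the other 3 genes. The count ratio of Synm over Vim was 0.124, 0.0977, 0.106, 0.107 and 0.163 in TfamAKO 1 to 5, against 1.65, 1.29, 1.34, 1.22 and 1.17 in WT 1 to 5. That of Synm over Nes was 1.75, 0.913, 0.899, 1.07 and 0.981 in TfamAKO 1 to 5, against 7.46, 6.70, 6.77, 6.39 and 5.96 in WT 1 to 5. Neither ratio overlapped between the groups. The log2 differences were -3.50 ± 0.16 for Synm over Vim, -2.61 ± 0.19 for Synm over Nes and -1.71 ± 0.29 for Synm over Gfap (SE, exact permutation p = 0.00794 and adjusted p = 0.00952 for each).

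**Figure D4:**
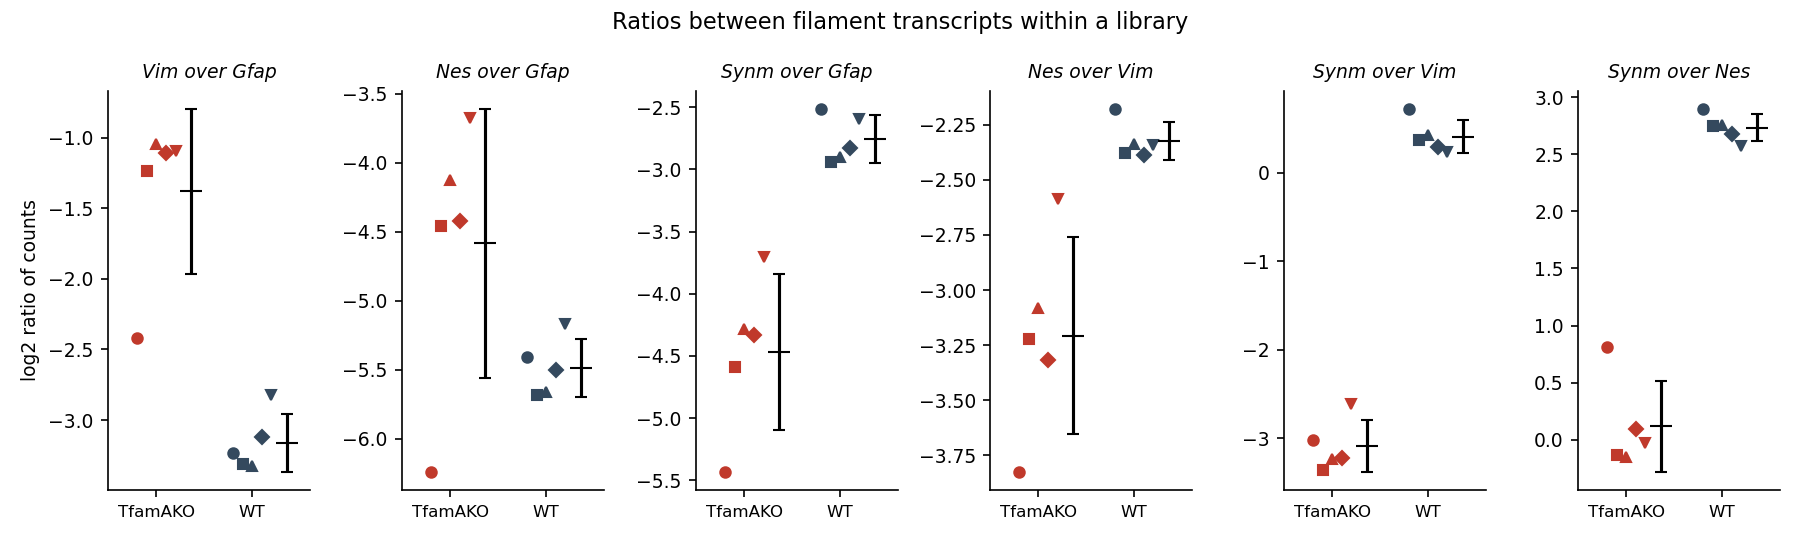
Log2 ratio of counts for the 6 pairs of filament genes, with TfamAKO left of WT; each symbol is 1 library, the black bars are mean and SD (n = 5), and each panel has its own axis. The groups are apart in 5 panels, and for Nes over Gfap the point of TfamAKO 1 (-6.24) lies below the WT points.

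The second deposited table, of normalized values, bears on how far the transcripts of a gene were changed by the authors' scaling. For Gfap the factor between normalized value and count, relative to the median factor of the library, was 0.993 to 1.001 in TfamAKO and 0.992 to 1.02 in WT. For Vim it was 0.967 to 1.03 in TfamAKO and 0.919 to 1.21 in WT, with the highest value in WT 1. In those values the log2 fold changes were 2.19 for Gfap, 3.93 for Vim, 3.10 for Nes and 0.46 for Synm (limma on log2 of the value plus 1). All 4 passed there, with a largest limma adjusted p of 0.0143, that of Synm.

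The members also differed in which genes had the most similar profile over the 10 libraries, measured as the root mean square difference of centred log2 CPM over 14790 genes. Nearest to Gfap were Mmp28 (0.251), a matrix metalloprotease, Pappa (0.253), a protease of insulin-like growth factor binding proteins, and Atf5 (0.261), a transcription factor of the mitochondrial stress response. Nearest to Vim were Eda2r (0.274), a receptor of the tumour necrosis factor family, Nupr1 (0.285), a stress-induced nuclear protein, and Glipr2 (0.295). Nearest to Nes were Lrg1 (0.247), a secreted glycoprotein, Rhoj (0.260), a small GTPase of endothelial cells, and Zbtb42 (0.283), a zinc finger protein. Nearest to Synm were Zyx (0.0957), which encodes zyxin of focal adhesions, Rab11fip5 (0.0964), an effector of vesicle recycling, and Mapk6 (0.0986), an atypical kinase.

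The measure covers all 10 libraries, so genes near to Vim, Nes or Synm were chosen in part for a low value in TfamAKO 1. Genes near to Gfap were chosen in part for lacking one. Rhoj was at 16.9, 52.8, 52.1, 50.6 and 42.5 CPM in TfamAKO 1 to 5, against 3.996 to 7.97 CPM in WT, and Lrg1 was at 3.20 CPM in TfamAKO 1 and 9.16 to 12.2 CPM in TfamAKO 2 to 5. Zyx likewise was at 45.6 CPM in TfamAKO 1, within the WT range of 43.3 to 50.6 CPM, and at 66.3 to 77.2 CPM in the other TfamAKO libraries. Atf5, near to Gfap, did not set TfamAKO 1 apart, with 134.8 CPM there and 125 to 167.5 CPM in TfamAKO 2 to 5. Between members the difference was 0.529 for Vim and Nes, 0.773 for Gfap and Nes and 0.973 for Gfap and Vim. Nes ranked 27 among the genes most like Vim.

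Intermediate filament genes outside the astrocyte set moved in both directions. Of 11 other cytoplasmic members tested, 2 rose and 6 fell, beside 20.8% and 16.6% of all genes. Their median log2 fold change was -0.46, beside -0.02 over all genes. Alpha-internexin and the neurofilament chains, subunits of neurons, fell by less than 1 on the log2 scale, and the peripherin gene Prph did not pass (0.21). Ina, which encodes alpha-internexin, averaged 146 ± 23.5 CPM in TfamAKO and 234 ± 11.4 CPM in WT (SD, n = 5 each), a log2 fold change of -0.68 ± 0.09 (edgeR adjusted p = 0.000211). The log2 fold change was -0.84 ± 0.12 for Nefh, -0.49 ± 0.08 for Nefm and -0.46 ± 0.09 for Nefl, the neurofilament chains. Summed neuronal markers were 9113 to 10990 CPM in TfamAKO and 11585 to 12678 CPM in WT, and their part in these differences was not tested.

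The risers outside the set, chosen after their values were seen, were Des and Bfsp2. Des, the desmin gene of muscle and pericytes, was at 5.21 to 8.50 CPM in TfamAKO and 1.598 to 3.99 CPM in WT (log2 fold change 1.22 ± 0.24, edgeR adjusted p = 0.00197). Bfsp2, a filament gene known from the lens, was at 6.76 to 9.84 CPM in TfamAKO and 2.58 to 5.58 CPM in WT. Its rise of 1.05 on the log2 scale did not pass without WT 3, 4 and 5 (0.99, edgeR adjusted p = 0.0506). Krt8 and Krt18, keratins of simple epithelia also picked after their values were seen, fell by 2.52 and by 2.65 on the log2 scale, with WT levels above 4 CPM in WT 3, 4 and 5 only. Without those 3 libraries the log2 fold change was -0.52 for Krt8 and 0.17 for Krt18, and neither passed (edgeR adjusted p = 0.641 for Krt8 and 0.856 for Krt18). Of the nuclear lamins, Lmna rose by 0.84 ± 0.12 (SE, edgeR adjusted p = 0.000348), whereas Lmnb1 (0.06) and Lmnb2 (-0.19) did not pass.

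**Figure D5:**
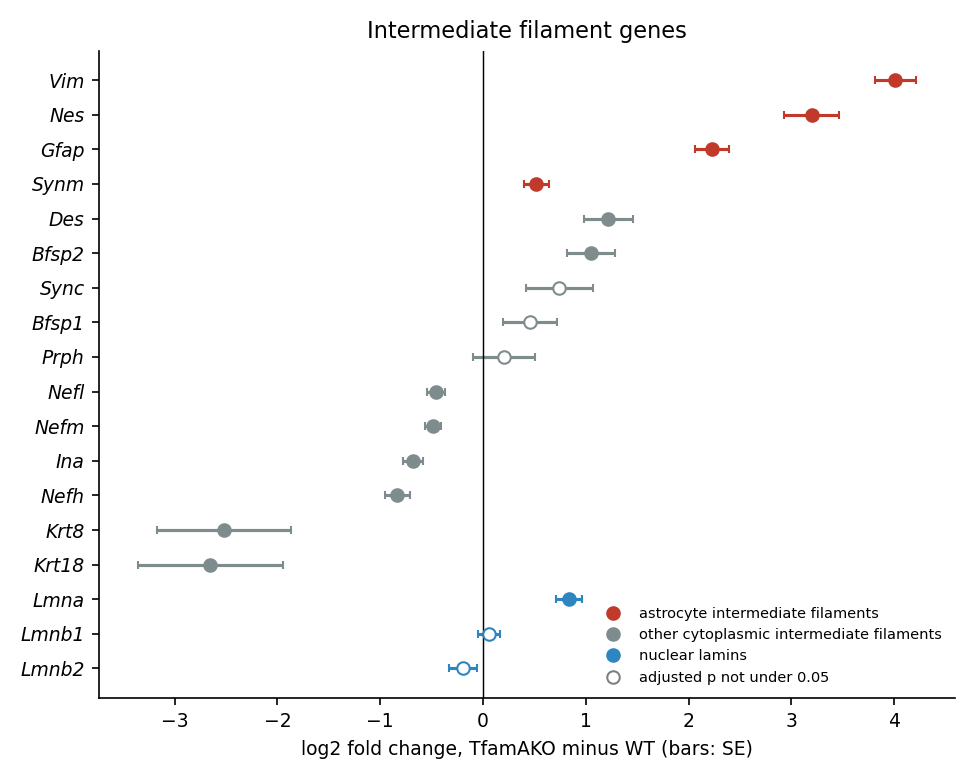
Log2 fold change (TfamAKO minus WT) of the 4 astrocyte filament genes, the 11 other cytoplasmic filament genes tested and the 3 lamins; points are edgeR estimates, bars SE, and open points did not pass the threshold of 0.05. Vim (4.01), Nes (3.20) and Gfap (2.23) lie to the right of every other filament gene, and the neurofilament genes lie left of 0.

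Among 12 genes for cytolinkers and other filament-binding proteins, 3 rose and 1 fell, beside 20.8% that rose and 16.6% that fell over all genes. The plakin Ppl rose by 0.99 ± 0.24, dystrophin (Dmd) by 0.30 ± 0.09 and Fam107a, an actin-bundling protein, by 0.29 ± 0.10 on the log2 scale. The desmosomal linker Dsp fell to 7.20 ± 3.68 CPM in TfamAKO, against 41.9 ± 3.73 CPM in WT (SD, n = 5 each), with a log2 fold change of -2.54 ± 0.27 (edgeR adjusted p = 3.45e-05). The rises of Ppl, Dmd and Fam107a did not pass without WT 3, 4 and 5, in a fit with fewer samples. The estimates there were 0.99, 0.27 and 0.33. That of Fam107a did not pass either when WT 1, WT 4, WT 5, TfamAKO 1, TfamAKO 2 or TfamAKO 4 alone was left out (0.22 to 0.28). With all libraries kept, Fam107a did not pass under upper-quartile scaling (0.25, edgeR adjusted p = 0.0645) or with a replicate block (0.29, edgeR adjusted p = 0.0654). Nor did it pass in the deposited normalized values (0.29, limma adjusted p = 0.0524). Plec, the gene of the main cytolinker plectin, had a log2 fold change of 0.27 and did not pass.

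Of 14 genes for filament chaperones and turnover, 8 rose and 2 fell (median log2 fold change 0.42), beside 20.8% and 16.6% of all genes. Small heat shock proteins bind unassembled filament subunits, and the genes Hspb1, Hspb6 and Hspb8 had the largest log2 fold changes of the list. Hspb1 averaged 65.1 ± 27.1 CPM in TfamAKO and 8.39 ± 1.87 CPM in WT (SD, n = 5 each), a log2 fold change of 2.95 ± 0.33 (edgeR adjusted p = 4.81e-05), and its level in TfamAKO 1 was 21.5 CPM, beside 57.1 to 87.1 CPM in TfamAKO 2 to 5. Hspb6 rose by 2.31 ± 0.19 and Hspb8 by 1.80 ± 0.22 on the log2 scale. Capn2, a calpain protease that cuts filament proteins, rose by 0.86 ± 0.07. Cryab, the alphaB-crystallin gene best known as a GFAP chaperone and picked after its values were seen, was at 73.7 to 98.1 CPM in TfamAKO and 61.8 to 93.2 CPM in WT, and its difference of 0.15 ± 0.13 did not pass (edgeR adjusted p = 0.391). The ubiquitin ligase genes Trim32 and Stub1 fell by 0.24 and by 0.20 on the log2 scale. Neither fall passed without WT 3, 4 and 5, where fewer samples gave -0.23 for Trim32 and -0.20 for Stub1.

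Of 12 kinases and phosphatases of filament proteins tested, 3 rose and 3 fell (5 rose without WT 1), beside 20.8% and 16.6% over all genes, with a median log2 fold change of 0.01. Pak2 rose by 0.67 ± 0.08, Rock1, a kinase that phosphorylates GFAP and vimentin during cell division, by 0.58 ± 0.07, and Cdk1, picked after its values were seen, by 1.48. Pak1, Cdk5 and, picked likewise, Camk2a fell by 0.32, by 0.24 and by 0.30 on the log2 scale. These 3 falls and the rise of Cdk1 did not pass without WT 3, 4 and 5, in a fit with fewer samples. The estimates there were -0.37 for Pak1, -0.24 for Cdk5, -0.26 for Camk2a and 1.27 for Cdk1. Cdk1 did not pass in the deposited normalized values of all libraries either (0.70, limma adjusted p = 0.342). Its level was low, at 0.42 to 0.81 CPM in TfamAKO and 0.038 to 0.36 CPM in WT.

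Of 36 transcription regulators with known roles at filament genes, 21 rose and 1 fell, beside 20.8% and 16.6% of all genes. Their median log2 fold change was 0.41. Stat3, which drives Gfap in reactive astrocytes, was at 117, 195, 166, 150.4 and 144 CPM in TfamAKO 1 to 5, against 40.9, 52.0, 51.4, 50.6 and 48.3 CPM in WT 1 to 5. Its groups did not overlap, TfamAKO 1 was lowest in its group, and the log2 fold change was 1.67 ± 0.12 (SE, edgeR adjusted p = 2.22e-06). Runx1 rose by 2.66 ± 0.22, Cebpb by 0.96 ± 0.10 and Rbpj, the DNA-binding partner of Notch, by 0.78 ± 0.09 on the log2 scale. The gene that fell was the Notch target Hes5 (-1.71 ± 0.47, edgeR adjusted p = 0.0141). Without WT 3, 4 and 5, in a fit with fewer samples, its estimate was -1.88 and did not pass. In that fit 13 of the 36 rose.

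Of 24 actin and tubulin cytoskeleton genes, 14 rose and 1 fell (Tuba1b, an alpha-tubulin), beside 20.8% and 16.6% of all genes. Their median log2 fold change was 0.42. The fall of Tuba1b, picked after its values were seen, was -0.22 and did not pass without TfamAKO 3 (-0.20) or TfamAKO 4 (-0.18). Flnc, a filamin that crosslinks actin, averaged 104.5 ± 39.8 CPM in TfamAKO and 3.35 ± 1.07 CPM in WT (SD, n = 5 each), a log2 fold change of 4.94 ± 0.36 (edgeR adjusted p = 2.25e-06). Flnc was at 35.5 CPM in TfamAKO 1 and at 113 to 137 CPM in TfamAKO 2 to 5. The tubulin Tubb6 rose by 4.37 ± 0.33, the actin-binding Tagln2 by 2.72 ± 0.23 and moesin (Msn) by 2.36 ± 0.22 on the log2 scale.

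Markers of cell types that make these filaments were measured beside them. Astrocyte markers split evenly, with 6 of 16 higher and 6 lower in TfamAKO, beside 20.8% higher and 16.6% lower over all genes. Their summed level was 4550 to 6008 CPM in TfamAKO and 5253 to 6388 CPM in WT. Aldh1l1, a folate enzyme used as a general astrocyte marker, rose by 1.29 ± 0.10, whereas Ntsr2, Gjb6 and Aldoc fell by 1.93, by 0.94 and by 0.81 on the log2 scale. The summed level overlapped between the groups, unlike the levels of Gfap, Vim and Nes.

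Of 11 neural stem and radial glia markers other than the members, 2 were higher (Egfr and, picked after its values were seen, Pax6), 5 were lower and 4 did not pass, beside 20.8% higher and 16.6% lower over all genes. The summed level was 351 to 504 CPM in TfamAKO and 447 to 535.5 CPM in WT. Egfr averaged 25.5 ± 4.03 CPM in TfamAKO and 10.7 ± 2.47 CPM in WT (SD, n = 5 each), whereas Thrsp fell by 0.96 ± 0.15 and Sox1 by 0.78 ± 0.20 on the log2 scale. Sox1 did not pass without TfamAKO 4 and 5 (-0.66, edgeR adjusted p = 0.0594) or without WT 3, 4 and 5 (-0.67, edgeR adjusted p = 0.122). When WT 2, WT 3, TfamAKO 2, TfamAKO 3 or TfamAKO 4 was left out 3 genes of the list were lower, and Pax6 did not pass without WT 5 (edgeR adjusted p = 0.0623). Of 13 proliferation genes tested, 7 rose and none fell at an edgeR adjusted p under 0.05, beside 20.8% and 16.6% of all genes. The summed level of the list was 86.7 to 102 CPM in TfamAKO and 73.5 to 79.1 CPM in WT. The largest rise by p was that of Top2a, at 2.28 ± 0.69 CPM in TfamAKO and 0.65 ± 0.22 CPM in WT (SD, n = 5 each). Without WT 3, 4 and 5, in a fit with fewer samples, only 1 proliferation gene passed. The estimates there were 1.55 for Mki67, 0.86 for Mcm2 and 0.34 for Pcna, beside 1.48, 0.85 and 0.37 with all libraries. Neuroblast markers had 3 of 11 higher (Dpysl3, Sox4 and Igfbpl1) and 1 lower (Neurod1), beside 20.8% higher and 16.6% lower over all genes, at a summed level of 192 to 247 CPM in TfamAKO and 163 to 192 CPM in WT. Neurod1 did not pass when WT 1, WT 4, WT 5, TfamAKO 3, TfamAKO 4 or TfamAKO 5 was left out (edgeR adjusted p 0.0501 to 0.0638), and 3 genes were lower without TfamAKO 1.

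Endothelial markers were higher in TfamAKO in 11 of 16 genes and lower in 1 (Mfsd2a), beside 20.8% higher and 16.6% lower over all genes. Their summed level was 633 to 1090 CPM in TfamAKO and 433.5 to 595.5 CPM in WT. Ly6c1 averaged 72.3 ± 25.2 CPM in TfamAKO and 28.6 ± 3.26 CPM in WT (SD, n = 5 each), and Eng rose by 1.13 ± 0.18 on the log2 scale. Without WT 3, 4 and 5, in a fit with fewer samples, the endothelial genes that rose numbered 4. Of 13 pericyte and smooth muscle markers 6 rose, beside 20.8% of all genes, at a summed level of 321 to 463 CPM in TfamAKO and 236 to 330 CPM in WT. They were led by Notch3 with 40.8 ± 7.09 CPM in TfamAKO and 17.0 ± 3.39 CPM in WT (SD, n = 5 each). Of 14 microglial and macrophage markers tested 12 rose, beside 20.8% of all genes, at a summed level of 786 to 1026 CPM in TfamAKO and 421 to 492 CPM in WT. Among them the fractalkine receptor gene Cx3cr1 and the complement gene C1qa rose by 0.94 ± 0.07 and by 1.53 ± 0.12 on the log2 scale. The parts of vessel cells and microglia in the rise of Vim and Nes were not tested.

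The counts of the next lists stand beside 20.8% of all genes that rose and 16.6% that fell. Fibroblast markers summed to 186 to 450.1 CPM in TfamAKO. In WT they summed to 159 and 181.5 CPM in WT 1 and 2, and to 414, 422 and 487 CPM in WT 3, 4 and 5. Of 12 fibroblast genes 1 was higher (Mgp), beside 3 without WT 5 and 2 without TfamAKO 1 or TfamAKO 5. Without WT 3, 4 and 5, in a fit with fewer samples, 5 fibroblast genes were higher. Ependymal markers summed to 38.8 to 67.3 CPM in TfamAKO and 34.9 to 63.0 CPM in WT, with 1 of 10 higher (Foxj1) and 1 lower (Mia), beside 2 higher without TfamAKO 5 and 4 lower without TfamAKO 1. Mia did not pass without TfamAKO 2, WT 3, WT 4 or WT 5 (edgeR adjusted p 0.0532 to 0.0740). All 14 choroid plexus markers were lower in TfamAKO, at 191 to 360 CPM in sum, against 167 and 425 CPM in WT 1 and 2 and 7805, 6152 and 4168 CPM in WT 3, 4 and 5. Without WT 3, 4 and 5 only 1 of the 14 was lower. The log2 fold change there was -0.42 for Folr1, -0.23 for Clic6 and -0.58 for Calml4, beside -4.28, -3.96 and -2.56 (-2.555 unrounded) with all libraries. Of the neuronal markers 7 of 14 fell, beside 16.6% of all genes. The number that fell was 10 without TfamAKO 1 and, with fewer samples, 4 without WT 3, 4 and 5. Of the oligodendrocyte markers 5 of 14 rose, beside 9 without WT 2 and, with fewer samples, 3 without WT 3, 4 and 5. The 1 oligodendrocyte gene that fell was Olig1 (log2 fold change -0.33, edgeR adjusted p = 0.0487). Among the fits that left out 1 library, Olig1 passed only without WT 5 or TfamAKO 1. Summed oligodendrocyte markers were 6141 to 8281 CPM in TfamAKO and 5459 to 9357 CPM in WT. No listed marker was at 0 in all libraries. The summed ependymal and oligodendrocyte markers overlapped between the groups. Summed fibroblast markers overlapped through WT 3, 4 and 5 only, as WT 1 and 2 lay below every TfamAKO library.

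The 4 member changes were similar without the libraries that stood apart. Without TfamAKO 4 and 5 the log2 fold change was 2.38 for Gfap, 4.003 for Vim, 3.06 for Nes and 0.38 for Synm, and the largest edgeR adjusted p was 0.0450, that of Synm. Without TfamAKO 1 it was 2.11 for Gfap and 4.13 for Vim. Without WT 3, 4 and 5 the calls of Gfap, Vim and Nes held, and 3 of the 4 members passed.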

How the data were processed

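Hippocampal RNA of 5 TfamAKO and 5 WT mice was analysed. The deposited count table holds the authors' estimated counts per gene, all whole numbers. Salmon (version not stated) and DESeq2 1.26.0 are the tools listed in the submitters' processing notes. A second deposited table holds normalized values, treated as signal, and no source used here says how the authors scaled them. Genome build and annotation are likewise not given, so no gene coordinates are printed other than RefSeq promoter windows in GRCm38.p6.

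R 4.3.3 and edgeR 4.0.16 were used for the counts. The filterByExpr filter (minimum count 10) removed 3976 genes. Libraries were scaled by TMM, and genotype was the only term of a two-sided quasi-likelihood F test with Benjamini-Hochberg adjustment over 16180 genes at 0.05. Fold changes on the log2 scale give TfamAKO minus WT. The SE of an edgeR log2 fold change was derived from the test, as its absolute value divided by the square root of F. CPM values use effective library sizes. P-values beside CPM or log2 values are from this test. Ratio tests used log2 ratios with a prior of 0.5 counts. Likeness used genes averaging at least 1 CPM, with 0.1 CPM added. Lengths came from GENCODE M21. Reads carry no stated molecular identifiers.

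The members and lists were chosen with earlier results of these data known. Named genes are the 4 members, Tfam, up to 4 genes per list with the smallest p, and the 3 genes most like each member; 1 gene the rule names is not reported here. Others (Des, Bfsp2, Krt8, Krt18, Prph, Plec, Cryab, Trim32, Stub1, Cdk1, Camk2a, Hes5, Tuba1b, Pax6, Olig1, Ttc23, Kdm5d, Ttr) were picked after their values were seen. Alternatives were other scalings and filters, the DESeq2 1.42.0 Wald test, limma 3.58.1 (voom, and the normalized values), a replicate block, and leaving out libraries. The edgeR fit was checked on simulated data.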

Additional observations from a re-analysis of the deposited data

Results flagged for a closer look

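In groups of 5 libraries, a value was singled out where its gap to the nearest other value exceeded 0.71 of the range of the group. Chance singles out about 1 in 20 independent groups, and 20 values were found in 178 groups. The groups were not independent, as the ratios share genes. Genes near to Vim, Nes or Synm were chosen in part for a low value in TfamAKO 1, and others were picked after their values were seen. The chance rate is therefore no measure of how unusual these counts are. Of the 20 values, 11 belonged to TfamAKO 1. For the filament genes these were Nes at 36.3 CPM and the count ratios of Vim over Gfap at 0.187 and of Synm over Nes at 1.75, all in TfamAKO 1. In WT 1 the count ratio of Nes over Vim stood apart at 0.221. TfamAKO 1 also stood apart for Lmna at 50.9 CPM, Rbpj at 35.9 CPM, Flnc at 35.5 CPM, Rhoj at 16.9 CPM, Ttc23 at 5.34 CPM, Trim32 at 186 CPM, Sox1 at 23.5 CPM and Ntsr2 at 72.9 CPM. TfamAKO 5 stood apart for Plec at 265 CPM and Ttr at 107 CPM. Tfam stood apart at 19.6 CPM in TfamAKO 3 and at 20.6 CPM in WT 3. WT 2 stood apart for Tubb6 at 1.258 CPM, Atf5 at 36.7 CPM and Pak1 at 345.5 CPM, and WT 1 for Mmp28 at 2.52 CPM.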

How the results depend on the processing

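Under 23 alternatives the log2 fold change ran from 2.11 to 2.38 for Gfap, from 3.92 to 4.19 for Vim, from 3.06 to 3.40 for Nes and from 0.38 to 0.63 for Synm, and no member changed direction. Gfap, Vim and Nes passed in all of them (largest adjusted p 0.00163, 0.000212 and 0.00261). Synm lost its call only without WT 3, 4 and 5 (0.57, edgeR adjusted p = 0.0806). With 1 library left out at a time Synm ran from 0.45 to 0.63 (edgeR adjusted p 3.04e-05 to 0.0179). Without WT 3, 4 and 5, 2002 genes rose and 750 fell, in a fit with fewer samples. There the log2 ratio differed by 1.89 for Vim over Gfap, -1.74 for Synm over Gfap, -0.93 for Nes over Vim, -3.63 for Synm over Vim and -2.70 for Synm over Nes, and the smallest exact permutation p of 0.0952 cannot pass. The log2 ratio of Nes over Gfap ran from 0.67 to 1.31 with 1 library left out. Replicate numbers did not pair the mice (correlations of same-numbered deviations -0.142 to 0.0691, and no library was most like its own number). With a replicate block the log2 fold changes were 2.20 for Gfap, 3.99 for Vim, 3.14 for Nes and 0.50 for Synm (edgeR adjusted p = 0.00386), and the block by sign flips gave ratio differences of 1.78, -1.71, -0.88, -3.50 and -2.61, with an exact p of 0.0625 at best. Of 2428 values for 106 other named genes 104 lost the call, 30 of them without WT 3, 4 and 5, and 1 reversed (Krt18, 0.17 without WT 3, 4 and 5). Of 874 list counts 84 moved by over 1.5 times. Scaling moved the median of all genes only between -0.05 and 0.03.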
